A study of Bubalus bubalis with 12 samples.

Results

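The bone morphogenetic protein (BMP) signalling genes described here were 10 genes, taken as the rows of the deposited expression table whose symbol was BMP2, BMP4, BMP6, BMP7, BMPR1A, BMPR2, SMAD6, ID1, ID2 or ID3. Each symbol matched 1 row among the 34037 genes of the table. Ruminal wall was biopsied at slaughter from 12 adult Italian Mediterranean dairy buffaloes of a commercial herd. The 6 control animals were fed a total mixed ration (TMR), and the 6 treated animals were fed TMR of which 30% was green feed, fresh ryegrass. Both diets were balanced for nitrogen and energy, and every animal gave 1 library of total RNA from unsorted wall tissue, in which markers of epithelium, smooth muscle and fibroblasts were all measured.

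BMPs are secreted ligands that bring together type I and type II receptor kinases on the cell surface. The activated type I receptor phosphorylates SMAD1, SMAD5 or SMAD9, which enter the nucleus with SMAD4 and switch on target genes such as ID1, ID2, ID3 and SMAD6. In stratified epithelia and gut wall the pathway is known for its part in the balance between dividing and differentiating cells and in the exchange of signals between epithelium and stroma.

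Values are FPKM, the fragments counted on a gene per kilobase of its length, scaled to the counted fragments of that animal. The libraries held between 10531541 and 12948372 counted fragments. The summed level of the squamous epithelium markers, of which 8 of 10 were matched, was high in every animal. It was from 2680 to 4470 FPKM in the control group and from 2560 to 5230 FPKM in the treated group. The single markers differed widely, with means over all animals from 3.48 FPKM for DSG1 to 1490 FPKM for KRT5. All 10 smooth muscle markers had a lower mean log2 level in the treated group, where 50.3% of all genes tested had a higher one. The nominal p-value of limma was below 0.05 for CNN1, ACTG2 and DES (adjusted p = 0.9996 each) and for 1.83% of all genes tested. CNN1 and ACTG2 had at most 36 and 27 reads and a lowest value of 0 FPKM. SMTN, the highest of the 10, had means of 13.4 FPKM in the control and 13.5 FPKM in the treated group. The summed level of the 10 markers was from 28.9 to 51.2 FPKM in the control group and from 15.5 to 40.7 FPKM in the treated group. All 8 fibroblast markers also had a lower mean, with none of them past that threshold, and summed levels from 47.2 to 284 FPKM and from 20.3 to 187 FPKM. In such bulk samples, fewer cells of a type and less RNA per cell cannot be told apart.

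The diets overlapped in every BMP signalling gene, and none of these genes had a nominal p-value below 0.05 in limma. BMP6 showed the largest difference of the 10, with a mean 1.87 times that of the control group, while BMPR1A, BMPR2 and BMP2 had log2 fold changes from -0.09 to -0.03. By limma on log2(FPKM + 0.01), the nominal p-value was below 0.05 for 0 of the 10 genes and for 1.83% of all 16450 genes tested, 1.02% with the higher and 0.809% with the lower level in treated animals. BMP6 alone was below 0.1, as were 4.21% of the genes tested, and BMP6 alone had an absolute log2 fold change of 0.9 or more, as had 6.57%. The FPKM of the diets did not overlap for 0 of the 10 genes and for 0.0669% of the genes tested. All 10 passed the filter on low levels, 0.1 FPKM or more in 6 or more of the animals. The adjusted p-value of limma was 0.9996 for each of the 10, and 0% of the genes tested had an adjusted p-value below 0.05. By limma-voom on the reads behind the FPKM, the number of the 10 below a nominal 0.05 was 0 as well. The median log2 fold change, treated minus control, was -0.06 over the 10 genes and 0.0016 over all genes tested.

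By level, ID1 stood highest with a mean of 28.98 FPKM over the 12 animals, followed by ID2 with 12.5, BMPR1A with 10.1, BMP2 with 8.94, BMPR2 with 8.89 and BMP7 with 8.86 FPKM. Lower levels were those of BMP6 with 3.45, ID3 with 3.40, SMAD6 with 2.02 and BMP4 with 0.621 FPKM. Neighbours in this order were compared within animals by a two-sided exact sign-flip permutation test over 4096 sign patterns, adjusted over 9 pairs. The pairs and their direction came from these same values. The p-values thus describe how steady each difference was over the animals, and are not an independent test of the order. ID1 lay above ID2 and SMAD6 above BMP4 in 12 of 12 animals (exact permutation, adjusted p = 0.0022 each). BMP7 lay above BMP6 in 10 of 12 animals (exact permutation, adjusted p = 0.0191), and ID3 above SMAD6 in 9 of 12 (exact permutation, adjusted p = 0.0319). ID2, BMPR1A, BMP2 and BMPR2 were not told apart from the next gene in the order, with adjusted exact permutation p-values from 0.106 to 0.72. BMP6 and ID3 were not told apart either (exact permutation, adjusted p = 0.773).

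**Figure D1:**
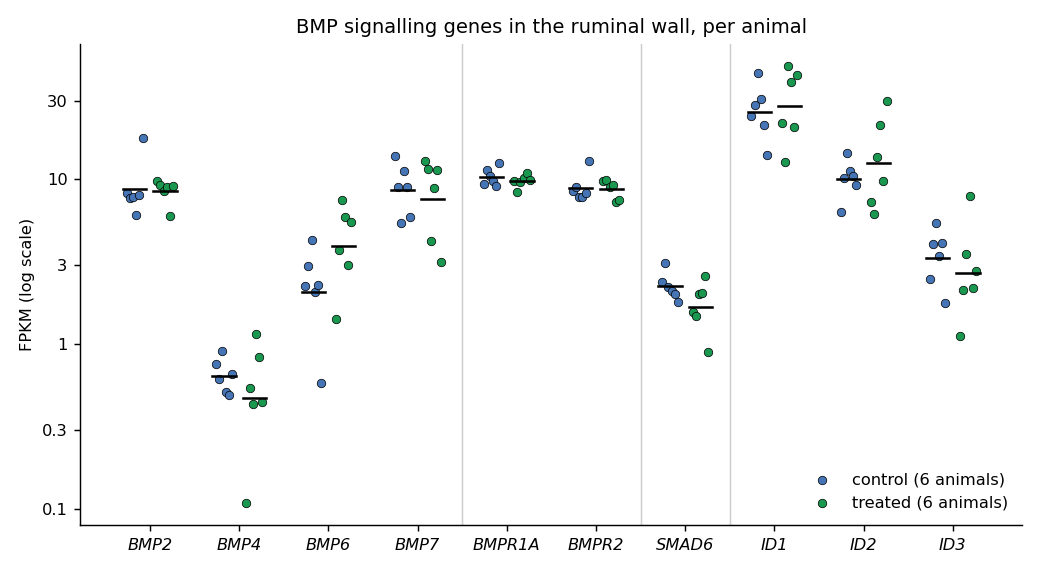
FPKM (log scale) of the 10 BMP signalling genes in each of 6 control and 6 treated animals, with points for animals and black bars for the geometric means. Only BMP6 and ID2 show several treated points above the highest control point, and in no gene do the groups separate.

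The ligand genes among the 10 were BMP2, BMP4, BMP6 and BMP7. BMP2, a ligand made in many epithelia and in mesenchyme, had 8.30, 7.67, 7.77, 6.06, 8.05 and 17.7 FPKM in control replicates 1 to 6. The treated replicates 1 to 6 had 9.77, 9.21, 8.53, 8.98, 5.99 and 9.15 FPKM. Control replicate 6 stood far above the other 11 animals, and the remaining values of both groups overlapped. The mean was 9.27 ± 4.22 FPKM with the control diet and 8.61 ± 1.34 FPKM with green feed (SD, n = 6 each), which on the log2 scale is a fold change of -0.03 (SE 0.22). Without control replicate 6 the log2 fold change of BMP2 was 0.176.

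BMP7, a ligand known from epithelia of several organs, was at 13.8, 8.94, 5.40, 11.2, 8.97 and 5.93 FPKM in control replicates 1 to 6. The treated animals had 12.9, 11.6, 4.20, 8.85, 11.4 and 3.13 FPKM. Both groups held animals near the top and near the bottom of the range, and treated replicates 3 and 6 were the lowest of all 12. The means were 9.04 ± 3.16 and 8.68 ± 4.11 FPKM (SD, n = 6 each), with a log2 fold change of -0.17 (95% interval -0.95 to 0.62). Without treated replicate 6 it was 0.0909.

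BMP6, a ligand of the same subgroup as BMP7, that is best known for its part in the control of iron through hepcidin in the liver, was the gene of the 10 that differed most in mean. Control replicates 1 to 6 had 2.26, 2.97, 4.26, 2.06, 2.29 and 0.582 FPKM, which rested on 102, 127, 198, 94, 101 and 22 reads. Treated replicates 1 to 6 had 1.42, 3.72, 7.48, 5.86, 3.01 and 5.49 FPKM, from 61, 161, 323, 254, 128 and 251 reads. Treated replicates 3, 4 and 6 were above every control animal, treated replicate 1 was below all control animals but control replicate 6, and so the groups overlapped.

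The mean level of BMP6 was 2.40 ± 1.20 FPKM with the control diet and 4.50 ± 2.19 FPKM with green feed (SD, n = 6 each). On the log2 scale the fold change was 0.93 (SE 0.47), with a 95% interval from -0.09 to 1.95, which as a fold runs from 0.941 to 3.86. The nominal p-value of limma was 0.0701, the adjusted p-value 0.9996, and a two-sided exact permutation test over the 924 assignments of the animals gave p = 0.102. A smaller limma p-value was found for 2.7% of the genes tested. The study itself lists BMP6 as higher in treated animals, by edgeR at a nominal p-value below 0.05 and by NOISeq. It reports no gene that passed in edgeR once the p-values were adjusted. For its genes lower in treated animals, it lists the BMP signalling pathway among the enriched Gene Ontology terms. The size of the BMP6 difference depended on single animals. Without control replicate 6, the lowest animal, it was 0.567, with a limma p-value of 0.163. Without treated replicate 1 it was 1.22, with a limma p-value of 0.0148. Without control replicate 3 it was 1.14, with a limma p-value of 0.0341. With a score of the smooth muscle and fibroblast markers as a covariate, the log2 fold change was 1.20 (SE 0.548), with a limma p-value of 0.0481. The part of tissue makeup in the difference was not tested further.

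BMP4, a ligand typical of mesenchyme under epithelia, was the lowest of the 10 and rested on 3 to 32 reads per animal. The control group had 0.758, 0.618, 0.903, 0.512, 0.494 and 0.658 FPKM, and the treated group 0.109, 0.539, 0.433, 1.15, 0.840 and 0.442 FPKM. The treated group thus held both the highest and the lowest value. Treated replicate 1 had 3 reads, a number that cannot be told from the floor of 3 reads used here. Treated minus control, the log2 difference was -0.43 (SE 0.47), and -0.0264 without treated replicate 1. The counting error alone was 24.0% of the mean number of reads, beside a coefficient of variation of 43.2% over the animals.

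The 4 ligands together made up 21.4 ± 2.89 FPKM with the control diet and 22.4 ± 2.76 FPKM with green feed (SD, n = 6 each). BMP2 and BMP7 took the larger shares of this sum, with means of 42.6% and 42.4% in the control group and of 38.8% and 37.7% in the treated group. BMP6 made up from 2.33% to 23.2% in control animals, with a mean of 11.9% ± 6.90, and from 5.87% to 36.2% in treated animals, with a mean of 20.8% ± 11.3 (SD, n = 6 each). BMP4 stayed between 0.449% and 4.93%. Relative to its mean, the sum of the ligands varied less within each group than any of the 4 ligands did. These shares are given as a description, with no test.

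**Figure D2:**
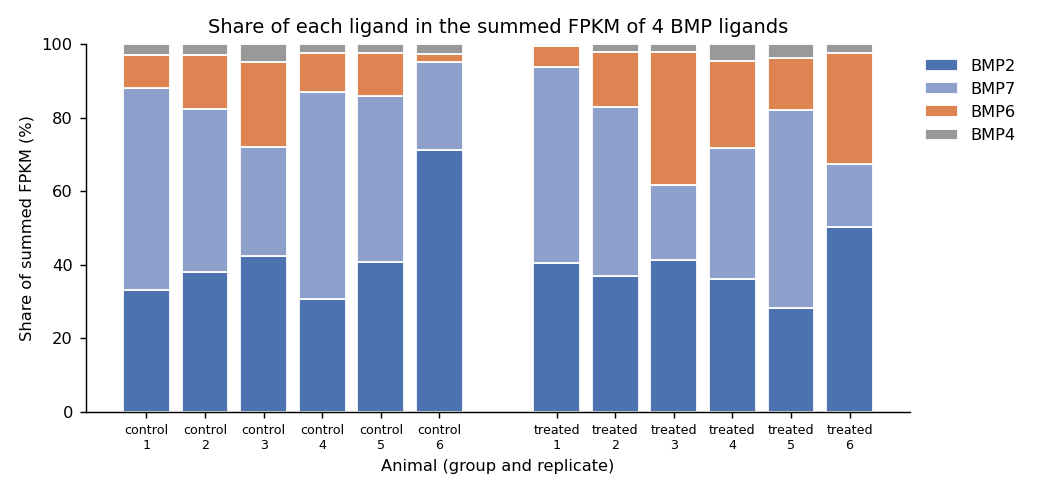
Share (%) of BMP2, BMP7, BMP6 and BMP4 in their summed FPKM in each animal, 1 bar per animal, control on the left and treated on the right. BMP6 reaches 36.2% in treated replicate 3 and 2.33% in control replicate 6, where BMP2 takes 71.2%.

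The receptor genes varied least. BMPR1A, a type I receptor kinase for BMP2 and BMP4, had 9.41, 11.4, 10.4, 9.70, 9.03 and 12.6 FPKM in control replicates 1 to 6 and 9.77, 8.36, 9.57, 10.2, 10.9 and 9.93 FPKM in treated replicates 1 to 6. The values of both groups lay within a range of 1.51-fold. The log2 fold change was -0.09 (SE 0.11), with a 95% interval from -0.33 to 0.16. This interval, from 0.795-fold to 1.12-fold, was the narrowest of the 10 genes. BMPR2, the type II receptor that phosphorylates BMPR1A, had 8.46, 8.91, 7.76, 7.85, 8.27 and 12.9 FPKM in the control group. In the treated group it had 9.69, 9.88, 8.92, 9.26, 7.24 and 7.51 FPKM. As for BMP2, control replicate 6 had the highest value. On the log2 scale the fold change of BMPR2 was -0.03 (SE 0.15), and 0.0765 without control replicate 6.

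The coefficient of variation over the 12 animals was 11.1% for BMPR1A and 17.1% for BMPR2, below the median of 23.1% for genes with a mean of at least 1 FPKM. It was 33.7% for BMP2, 39.5% for BMP7 and 58.3% for BMP6, beside a counting error of 5.88%, 4.98% and 8.12%.

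SMAD6, an inhibitory SMAD that BMP signalling itself switches on and that then blocks the receptors, had 2.39, 3.11, 2.22, 2.11, 2.02 and 1.80 FPKM in control replicates 1 to 6. The treated animals had 1.56, 1.49, 2.02, 2.03, 2.60 and 0.892 FPKM. Treated replicates 1, 2 and 6 were below every control animal, and treated replicate 5 was above all control animals but control replicate 2. The mean was 2.28 ± 0.457 FPKM with the control diet and 1.76 ± 0.584 FPKM with green feed (SD, n = 6 each). Treated minus control, the log2 difference was -0.42 (SE 0.25, limma p = 0.116, adjusted p = 0.9996; two-sided exact permutation p = 0.106). Without treated replicate 5 it was -0.544, with a limma p-value of 0.0462, and without treated replicate 6 it was -0.237. Among the treated animals, replicates 1 and 2 also had the lowest scores of the smooth muscle markers. With the smooth muscle and fibroblast score as a covariate, the log2 difference of SMAD6 was -0.356 (SE 0.295), with a limma p-value of 0.25. Whether tissue makeup has a part in the SMAD6 difference was not tested further.

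The ID genes encode small helix-loop-helix proteins without a DNA-binding region, which bind E proteins and keep them from DNA, and which are direct targets of BMP signalling in many cells. ID1 had 24.2, 28.1, 43.8, 30.7, 21.2 and 14.0 FPKM in control replicates 1 to 6. In treated replicates 1 to 6 it had 21.9, 12.7, 48.7, 38.8, 20.8 and 42.9 FPKM. High and low animals occurred in both groups, with treated replicate 3 and control replicate 3 at the top and treated replicate 2 and control replicate 6 at the bottom. The log2 fold change was 0.13 (SE 0.34).

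ID2 had 6.32, 10.1, 14.4, 11.2, 10.4 and 9.28 FPKM in the control group and 7.27, 6.12, 13.7, 21.3, 9.71 and 29.8 FPKM in the treated group. Treated replicates 4 and 6 were above every control animal, and treated replicate 2 was the lowest of all. The mean was 10.3 ± 2.62 FPKM with the control diet and 14.7 ± 9.25 FPKM with green feed (SD, n = 6 each). On the log2 scale the fold change was 0.32 (SE 0.35, two-sided exact permutation p = 0.455), and 0.068 without treated replicate 6.

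ID3 had 2.46, 4.07, 5.42, 3.41, 4.12 and 1.76 FPKM in the control group and 1.12, 2.14, 3.52, 7.87, 2.18 and 2.76 FPKM in the treated group. It rested on 13 to 92 reads per animal. Treated replicate 4 was the highest of all 12 animals, while 5 of the 6 treated animals were below the control median of 3.74 FPKM. Treated minus control, the log2 difference was -0.29 (SE 0.40). It was -0.598 without treated replicate 4, the highest animal, and -0.0379 without treated replicate 1, the lowest. Of the summed level of the 3 ID genes, ID1 held 65.3% ± 6.47 with the control diet and 64.1% ± 7.44 with green feed, ID2 26.1% ± 6.26 and 29.1% ± 6.46, and ID3 8.63% ± 1.70 and 6.86% ± 3.35 (SD, n = 6 each).

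**Figure D3:**
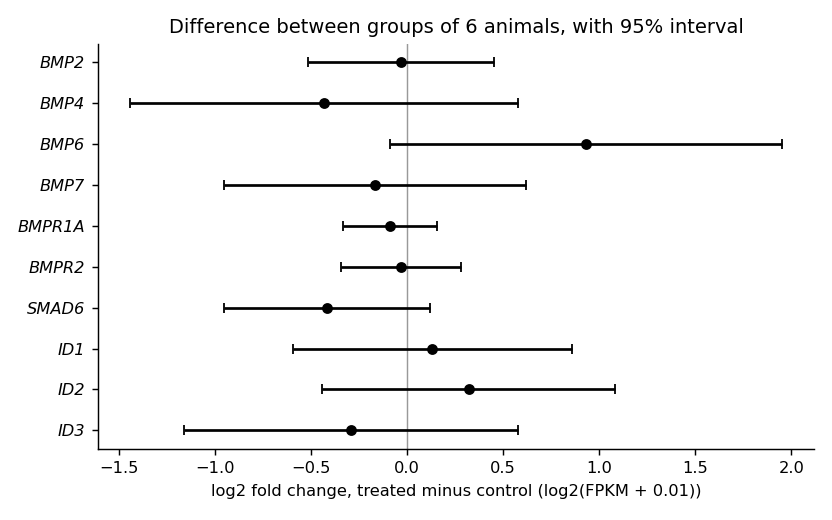
Log2 fold change (treated minus control, on log2(FPKM + 0.01)) of each gene as a point, with its 95% interval from limma on 6 against 6 animals. Every interval includes 0, that of BMP6 from -0.09 to 1.95, and that of BMPR1A is the narrowest.

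Within the treated group, replicates 3, 4 and 6 had the 3 highest levels of BMP6, of ID1, of ID2 and of ID3 alike. In the control group, replicate 3 had the highest level of all of these 4 genes, and replicate 6 had the lowest of BMP6, ID1 and ID3. How the 10 genes varied together was measured by correlations of log2(FPKM + 0.01) over the 12 animals for all 45 pairs, with two-sided permutation p-values adjusted by Benjamini-Hochberg over the pairs. The libraries share the scaling to their totals, which moves all genes of an animal together.

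Of the 45 pairs, 1 had an adjusted p-value below 0.05 by Pearson's r and 3 others by Spearman's rho. BMP2 and BMPR2 had r = 0.879 (permutation p = 0.00101, adjusted 0.0455) and rho = 0.741 (permutation p = 0.00813, adjusted 0.0915). Without control replicate 6 and treated replicate 5, the animals farthest from the median of BMP2, r was 0.533, so that much of the relation rested on them. Within the control group r was 0.955, and within the treated group 0.699. BMP2 and SMAD6 ran in opposite directions by rank, with rho = -0.818 (permutation p = 0.0021, adjusted 0.0382) and r = -0.375 (permutation p = 0.203, adjusted 0.531). Their r was -0.511 without the same 2 animals, -0.494 within the control group and -0.639 within the treated group.

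ID1 and ID2 had r = 0.753 (permutation p = 0.00432, adjusted 0.0807) and rho = 0.804 (permutation p = 0.00255, adjusted 0.0382). Without the 2 animals farthest in ID1 it was r = 0.728, and within the control and the treated group r was 0.546 and 0.846. BMP7 and ID2 ran in opposite directions, with r = -0.751 (permutation p = 0.00538, adjusted 0.0807) and rho = -0.804 (permutation p = 0.00252, adjusted 0.0382). This r was -0.673 within the control group, -0.777 within the treated group, and -0.545 without treated replicates 3 and 6.

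BMP6 had positive correlations with all 3 ID genes that did not pass the adjustment. With ID1 it had r = 0.696 (permutation p = 0.00993, adjusted 0.112) and rho = 0.601 (permutation p = 0.0429, adjusted 0.215). Within the groups this r was 0.899 in control and 0.641 in treated animals, and it was 0.468 without control replicate 6 and treated replicate 3. With ID3, r was 0.597 (permutation p = 0.0402, adjusted 0.246) and rho 0.566 (permutation p = 0.0586, adjusted 0.240), with 0.897 in control and 0.810 in treated animals and 0.618 without the same 2 animals. With ID2, r was 0.551 (permutation p = 0.0657, adjusted 0.246) and rho 0.615 (permutation p = 0.0369, adjusted 0.208), with 0.360 in control and 0.658 in treated animals and 0.717 without these 2. For SMAD6, also a target, r with BMP6 was -0.0957 (permutation p = 0.757, adjusted 0.889) and rho -0.0699 (permutation p = 0.836, adjusted 0.933), with 0.612 in control and -0.0486 in treated animals and -0.276 without the same 2 animals. BMP6 and BMPR2 had r = -0.582 (permutation p = 0.0531, adjusted 0.246), with -0.906 in control and -0.189 in treated animals. Without the same 2 animals it was -0.174. BMP4 and ID3 had r = 0.667 (permutation p = 0.02, adjusted 0.18), with 0.0683 in control and 0.785 in treated animals. That r was -0.0292 without treated replicates 1 and 4.

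**Figure D4:**
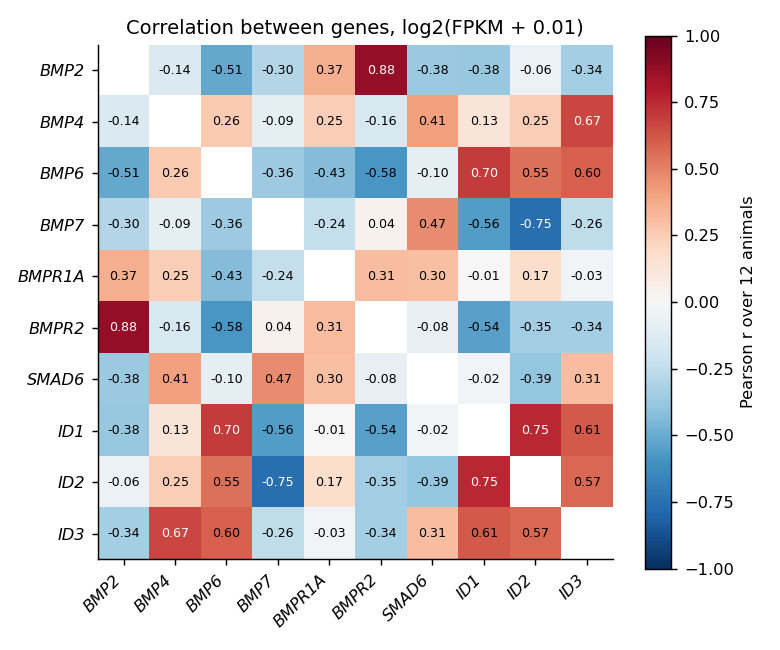
Pearson r over 12 animals for each pair of the 10 genes, on log2(FPKM + 0.01), in red where positive and in blue where negative. All pairs among BMP6, ID1, ID2 and ID3 have positive r, as have the pairs of BMP4 with each of them. BMP2 with BMPR2 has the highest r, 0.879.

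**Figure D5:**
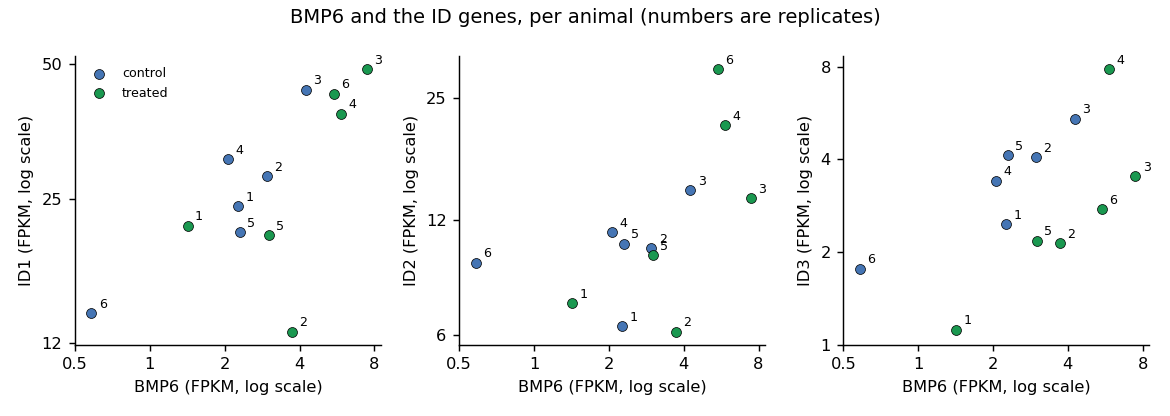
FPKM (log scales) of ID1, ID2 and ID3 against BMP6, with 1 point per animal, numbered by replicate, in blue for control and green for treated animals. Treated replicates 3, 4 and 6 lie at the upper right for ID1 and ID2, and control replicate 6 is the animal with the least BMP6.

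For each cell type, a score (the mean over its markers of the log2 level, centred and divided by its SD over the animals) was set beside the 10 genes in the same way, over 60 pairs of a marker list and a gene, and 0 pairs had an adjusted p-value below 0.05. By Pearson's r, the smallest p-value was that of ID1 with the immune list of 7 markers (r = -0.790, permutation p = 0.00173, adjusted 0.104; rho = -0.783, permutation p = 0.00404, adjusted 0.121). This r was -0.696 without control replicate 3 and treated replicate 3, -0.837 within the control group and -0.764 within the treated group. BMP4 went with the smooth muscle list (r = 0.692, permutation p = 0.00676, adjusted 0.126; rho = 0.804, permutation p = 0.00203, adjusted 0.121), with r = 0.751 without treated replicates 1 and 2, 0.768 in control and 0.689 in treated animals. This pair had the smallest p-value by rho. BMP4 had similar r with the fibroblast list (r = 0.713, permutation p = 0.00837, adjusted 0.126; rho = 0.594, permutation p = 0.0454, adjusted 0.283), with 0.405 without treated replicates 1 and 2, 0.601 in control and 0.752 in treated animals. With the endothelium list, BMP4 had r = 0.631 (permutation p = 0.021, adjusted 0.156; rho = 0.476, permutation p = 0.121, adjusted 0.382), with 0.163 without control replicate 5 and treated replicate 1, 0.648 in control and 0.697 in treated animals. BMP7 had r = 0.716 (permutation p = 0.00829, adjusted 0.126) and rho = 0.629 (permutation p = 0.0317, adjusted 0.238) with the squamous epithelium list. This r was 0.583 without treated replicates 1 and 6, 0.623 in control and 0.866 in treated animals. With the immune list, BMP7 had a similar r of 0.668 (permutation p = 0.0174, adjusted 0.156) and rho = 0.636 (permutation p = 0.0308, adjusted 0.238). That r was 0.484 without control replicate 3 and treated replicate 3, 0.38 in control and 0.78 in treated animals. BMP6 had r = -0.681 with the immune list (permutation p = 0.0162, adjusted 0.156; rho = -0.692, permutation p = 0.0156, adjusted 0.234), and -0.556 without control replicate 3 and treated replicate 3, -0.768 in control and -0.652 in treated animals.

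The endothelium list of 7 markers also had positive r with BMP6, ID1 and ID3. For BMP6, r was 0.606 (permutation p = 0.0341, adjusted 0.186) and rho 0.580 (permutation p = 0.0518, adjusted 0.283), with 0.568 without control replicate 5 and treated replicate 1, 0.559 in control and 0.901 in treated animals. For ID1, r was 0.577 (permutation p = 0.0498, adjusted 0.219) and rho 0.629 (permutation p = 0.0317, adjusted 0.238), with 0.635 without the same 2 animals, 0.645 in control and 0.556 in treated animals. For ID3, r was 0.643 (permutation p = 0.0234, adjusted 0.156) and rho 0.552 (permutation p = 0.0671, adjusted 0.310), with 0.646 without these 2, 0.201 in control and 0.866 in treated animals. SMAD6 had r = 0.643 with the smooth muscle list (permutation p = 0.0208, adjusted 0.156) and rho = 0.671 (permutation p = 0.0202, adjusted 0.238), with 0.611 without treated replicates 1 and 2, 0.0191 in control and 0.647 in treated animals. Among the markers of enteric neurons and glia, SOX10 and ELAVL4 were at 0 in every animal, and S100B alone passed the filter.

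For each gene, the most similar patterns over the 12 animals were searched among the genes with a mean of at least 1 FPKM. The genes nearest to BMP6 were LOC102392405 and LOC102400385 (r = 0.896 and 0.895), and those nearest to BMP2 were ANKIB1 and LYST (0.936 and 0.907). For BMP4 they were SOX4 and CYR61 (0.910 and 0.908), and for BMP7 BDKRB2 and CCDC3 (0.931 and 0.922). BMPR1A was nearest to LOC112585379 and LOC102393282 (0.946 and 0.927), and BMPR2 to TMEM131 and LOC112580642 (0.929 and 0.925). SMAD6 was nearest to PIK3R1 (0.909), and ID1 to PGAP3 and ROMO1 (0.913 and 0.903). ID2 was nearest to LSM1 and LOC112577660 (0.890 and 0.880), and ID3 to CLDN5, a tight junction gene of endothelium, and GOSR1 (0.879 and 0.816). These r are the highest of many and carry no test.

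Of 64 further genes of the pathway, 61 were matched by symbol and 43 were tested. None of the 43 had a nominal p-value below 0.05 in limma, where 1.83% of all genes tested did, and 0 had one below 0.05 by limma-voom. The mean log2 level was higher in treated animals for 11 and lower for 32 of them, with a median log2 fold change of -0.05 and a range from -1.18 to 0.592. Over all genes tested, 50.3% were higher.

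Among the other ligands, BMP5 alone passed the filter, with 0.245 ± 0.253 FPKM with the control diet and 0.104 ± 0.0622 FPKM with green feed (SD, n = 6 each). Its log2 fold change was -0.969 (SE 0.662, limma p = 0.166, two-sided exact permutation p = 0.158), on at most 31 reads in any animal. BMP10, BMP15, GDF2, GDF5 and GDF6 were at 0 in all animals. GDF7, the next highest, had a mean of 0.0465 FPKM over the 12 animals. Of 9 receptor and co-receptor genes tested, the type II receptor ACVR2A was highest, with 9.54 ± 1.94 and 9.05 ± 0.727 FPKM, a level close to that of BMPR2. NEO1, a receptor that binds the RGM co-receptors, followed with a mean of 7.96 FPKM over the 12 animals. Log2 fold changes in this group ran from -0.371 to 0.162.

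Inside the cell, all 12 SMADs and regulators were tested, with log2 fold changes from -0.189 to 0.139. SMAD4, the partner shared with TGF-beta signalling, had 33.6 ± 2.34 FPKM in controls and 32.6 ± 1.97 FPKM in the treated (SD, n = 6 each), and PPM1A, a phosphatase of SMADs, had a mean of 24.6 FPKM over the 12 animals. Of 13 tested antagonists and modulators outside the cell, 11 had a lower mean in treated animals. NBL1 and TWSG1, which bind BMPs, were highest, with means of 14.3 and 9.43 FPKM over the 12 animals. The range of log2 fold changes was widest in this class, from -1.18 to 0.592. Fibroblast markers were also lower in mean in the treated animals, and whether the antagonists vary with them was not tested. Of 5 tested targets, ID4 was the highest with a mean of 5.31 FPKM over the 12 animals, followed by HEY1 with 0.982 FPKM. HAMP, the hepcidin gene that BMP6 switches on in the liver, was at 0 in all 12 animals. The E proteins, to which the ID proteins bind, had log2 fold changes from -0.228 to -0.00205, with means of 3.95 FPKM for TCF12 and of 3.60 FPKM for TCF3 and TCF4.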

How the data were processed

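Total RNA from the ruminal wall of 12 buffaloes, 1 library per animal, was sequenced as paired ends from stranded libraries. The authors trimmed the reads with Trimmomatic 0.39, aligned them with STAR 2.5.2b to UOA_WB_1, took strand-specific gene counts from featureCounts 2.0.0, and deposited FPKM. The tool and the gene lengths behind the FPKM are not given in the sources used here. Of 16 columns, 12 were matched to animals by their labels, and 4 were not used.

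The FPKM of a gene rise in steps of 1 read. Reads were worked out for 22972 of 22972 genes above 0 (tolerance 0.001 reads), and the totals per animal are those at which the gene lengths became whole numbers. These totals set the depth, and 3 reads were taken as the floor.

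The study fitted a count model. Since the unit here is FPKM, limma 3.58.1 in R 4.3.3 (lmFit, eBayes with a trend) was run on log2(FPKM + 0.01) over the genes that reached 0.1 FPKM in 6 or more animals, with Benjamini-Hochberg adjustment, and was tested on simulated data. Single genes had a two-sided exact permutation test over 924 assignments, of which the smallest possible p-value is 0.00216. Correlations had 100000 permutations. Python 3.11.15, numpy 2.4.6 and pandas 2.3.3 were used, with matplotlib 3.10.9 for plots.

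Groups and replicate numbers were taken from the sample descriptions. The titles and the table's columns number the animals differently, so that a replicate number here is not the number in a column name. The genes named are the 10 genes, the pathway genes with a nominal p-value below 0.05 and the 2 highest of each role, the 2 nearest patterns of each gene, and markers, of which some are not reported here. HAMP, DLX5 and the genes at 0 were named after their values were seen. The genes and lists were chosen with earlier results of these data known. Alternatives were pseudocounts of 0.1 and 1, other filters, median-ratio scaling, robust empirical Bayes, limma-voom with TMM scaling, the replicate number as a block, a muscle and fibroblast score as a covariate, the ratio of the group means, and each animal left out.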

Additional observations from a re-analysis of the deposited data

Results flagged for a closer look

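In 4 of 20 sets of 6 values (10 genes in 2 groups), 1 animal lay far from the rest of its group. The gap to the nearest animal, divided by the range of the group, was compared with Dixon's limit of 0.625. That limit flags about 1 set in 20 by chance only for independent sets of normally distributed values. The FPKM were not transformed, and BMP2 and BMPR2 varied together, so no chance number is given for the 20 sets. Control replicate 6 was at 17.7 FPKM for BMP2, with the nearest control animal at 8.30, and at 12.9 FPKM for BMPR2, with the nearest at 8.91. Treated replicate 5 was at 5.99 FPKM for BMP2, below the nearest at 8.53. Treated replicate 4 was at 7.87 FPKM for ID3, above the nearest at 3.52. Control replicate 6 was also the animal with the fewest counted fragments, 10531541.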

How the results depend on the processing

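Of 99 alternative values of the log2 fold changes other than those with an animal left out, 95 kept their direction and, where there was a test, their side of the 0.05 threshold. The 10 ratios of the group means among them carry no test. The exceptions arose with the muscle and fibroblast score as a covariate, where BMP2 was at 0.00228, BMP4 at 0.261, ID3 at 0.138 and BMP6, past the threshold, at 1.20. This made 1 of the 10 genes with a nominal p-value below 0.05. Over these alternatives the limma p-value of BMP6 ran from 0.0481 to 0.075. BMP4 has no value with genes of at least 1 FPKM in 6 animals, which removes it. With each animal left out in turn, the log2 fold changes ran from -0.134 to 0.176 for BMP2, from -0.317 to 0.0909 for BMP7, from -0.0703 to 0.0765 for BMPR2, from -0.0407 to 0.358 for ID1, from 0.567 to 1.22 for BMP6 and from -0.598 to -0.0379 for ID3. They ran from -0.684 to -0.0264 for BMP4, from -0.127 to -0.031 for BMPR1A, from -0.544 to -0.237 for SMAD6 and from 0.068 to 0.525 for ID2. From 0 to 1 of the 10 genes and from 283 to 465 of all genes then had a nominal p-value below 0.05, the highest number without treated replicate 6. The lowest adjusted p-value of any of the 10 genes under any setting was 0.973. The number of all genes below a nominal 0.05 was 301 in the comparison reported, 562 with all genes above 0, 151 with genes of at least 1 FPKM, 474 with the score and 464 in the fit that blocks on replicate number. Same-numbered animals are different animals, and their deviations from the group means had correlations from -0.028 to 0.221, above 0.1 in 3 of 6 pairs. The mean was 0.0924, against -0.018 between animals of different numbers, and 3 of the 6 control animals correlated best with their own number. Whether the numbers mark a pairing is not settled by these values. For the 4 pairs that share a number in the titles, these correlations ran from -0.0393 to 0.108, and no fit with that block was run. With the block on the replicate number used here, 0 of the 10 genes passed. Of the further pathway genes, 1 did with all genes above 0, DLX5, which was at 0 in every treated animal. DLX5 had at most 3 reads in any animal, a number that cannot be told from the floor. Of the 45 pairs of genes, 1 passed by Pearson's r at each pseudocount and with median-ratio scaling, and 3 by Spearman's rho, or 2 with that scaling.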
